A study of Mus musculus with 6 samples.

Results

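The 10 genes described here act in the sensing, export, carriage, uptake, lysosomal release and storage of cholesterol: the liver X receptor genes Nr1h2 and Nr1h3, the transporter genes Abca1 and Abcg1, the apolipoprotein genes Apoe and Apod, the receptor gene Lrp1, the lysosomal genes Npc1 and Npc2, and the esterification gene Soat1. They were chosen by name for these roles and are 10 of the 24015 gene symbols in the count tables. RNA-Seq had been performed on mouse sciatic nerve at postnatal day 14 to compare expression between control mice and mice without Rnf40 in Schwann cells. Rnf40 is an E3 ubiquitin ligase subunit that acts on histone H2B. The 6 libraries comprised 3 from control and 3 from Rnf40 cko mice, and each was made from a pool of 3 nerves. Both groups carried floxed Rnf40 alleles (Rnf40 fl/fl), and the Rnf40 cko mice carried the Dhh::Cre transgene in addition, which is active in the Schwann cell lineage from embryonic stages on, so that other cells of the nerve keep intact Rnf40. No mice with Dhh::Cre alone were among the libraries. The labels give a mixed 129SvJ and C57Bl/6J background for all mice, whereas the methods give C3H and C57Bl/6J, and the library kit also differs between these sources. Library totals ranged from 1317167 to 2468765 counts, and p-values reflect the spread between these pools.

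Cells cannot break down the sterol ring, so surplus cholesterol is either exported, handed to lipoproteins or stored as ester. Oxysterols formed from surplus cholesterol activate the liver X receptors, which pair with retinoid X receptors and raise transcription of export genes, whereas low sterol levels activate the SREBP2 programme of synthesis and uptake. In peripheral nerve, Schwann cells make most of the cholesterol of their myelin themselves, and apolipoproteins E and D are known for the reuse of myelin lipids after nerve injury.

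Levels are given as CPM, the count of a gene in a library scaled to a common library size with TMM, which corrects for a shift shared by most genes. Rnf40 itself was measured at 67.5, 65.5 and 73.6 CPM in control replicates 1 to 3 and at 46.8, 46.9 and 48.8 CPM in Rnf40 cko replicates 1 to 3. Rnf40 was thus lower in all Rnf40 cko libraries than in any control library, as were 21.6% of all genes tested. Its log2 fold change was -0.54 (SE 0.14, adjusted p 0.00242 in edgeR's quasi-likelihood test), and with scaling by total counts alone it was -0.27 with an edgeR adjusted p of 0.12. The counts cover the whole gene and all cells of the nerve. Rnf20, which encodes the partner subunit, rose by 0.44 on the log2 scale (SE 0.13, edgeR adjusted p 0.00998), a call that was lost without control replicate 3 (adjusted p 0.087) or without Rnf40 cko replicate 1 (adjusted p 0.057).

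The 3 Rnf40 cko libraries differed more among themselves than the controls did. On the first principal component, which held 75% of the variance, all Rnf40 cko libraries were separated from the controls, and on the second (12.9%) Rnf40 cko replicate 3 stood apart at 20.35, against -10.49 and -3.95 for the other Rnf40 cko libraries. The summed level of 15 skeletal muscle genes was 125 and 323 CPM in Rnf40 cko replicates 1 and 2 but 3859 CPM in replicate 3, where it lay within the 2995 to 5294 CPM of the controls. Results are therefore given with this library, those of the 10 genes also without it, and those of other named genes without it where its omission changes the call.

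Across the 11371 genes with enough counts to be tested, 1756 (15.4%) passed the test at an adjusted p of 0.05 with a higher level in Rnf40 cko nerves and 1841 (16.2%) with a lower level. All 10 genes were among those tested. Of these, Abca1 and Abcg1 rose, Apoe, Npc2 and Lrp1 fell, and 5 did not pass. With 2 higher and 3 lower among 10 genes, the shares are near those of all genes, in view of so few members, and are no result about the group. The median log2 fold change of the 10 genes was 0.08, beside -0.0026 over all genes tested. Under the stricter limits that the study used for its own calls (a log2 fold change of 0.8 or more in either direction and a base mean of 20 or more), which 3.73% of all genes met upward and 5.05% downward, 2 of the 10 were higher (Abca1, Abcg1) and 2 lower (Npc2, Lrp1). Each of these lay near the limit on the fold change and missed it in at least 1 refit: Abca1 without control replicate 2 (0.79), Abcg1 without Rnf40 cko replicate 1 (0.75), Lrp1 without Rnf40 cko replicate 2 (-0.72), and Npc2 and Lrp1 with scaling by total counts alone (-0.65 and -0.59). The same 5 genes passed without Rnf40 cko replicate 3, and no others.

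Scaling mattered for the remaining 5 genes. When libraries were scaled by total counts alone, the median of all genes tested shifted to 0.27, and 3766 genes passed upward against 880 downward. Then 5 of the 10 genes passed upward, with Nr1h3, Apod and Npc1 joining Abca1 and Abcg1, while the same 3 passed downward. The differences given below are relative to the bulk of the genes, as TMM scaling sets it.

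**Figure D1:**
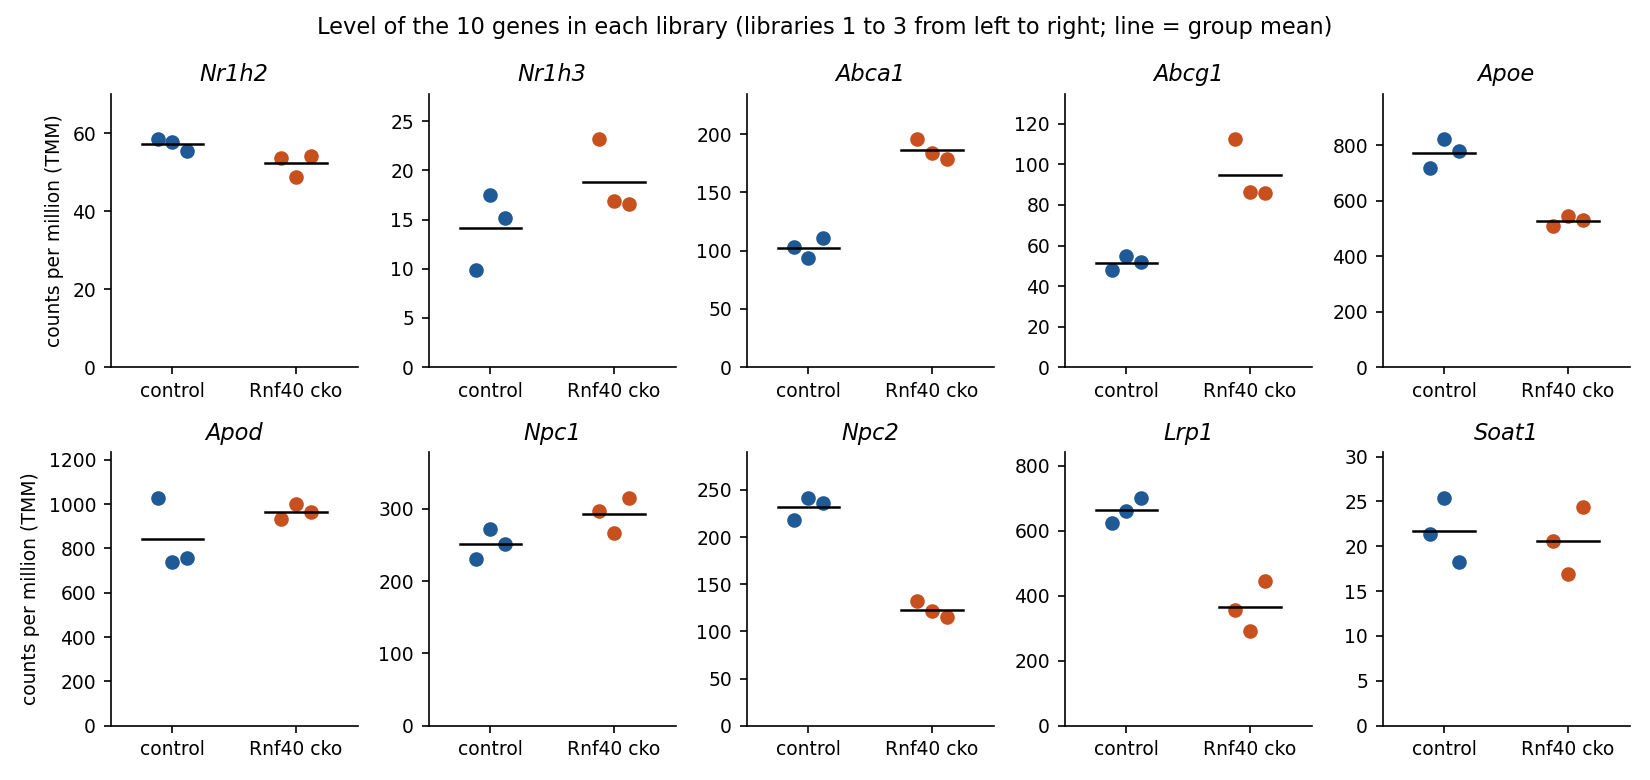
Level of each of the 10 genes (CPM after TMM scaling, axis from 0) in the 3 control (blue) and 3 Rnf40 cko libraries (orange), with lines at the group means. For Abca1 and Abcg1 all Rnf40 cko libraries lie above the controls, for Apoe, Npc2 and Lrp1 all lie below.

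The liver X receptor genes come first. Nr1h2 encodes LXR beta, which is found in most cells, and Nr1h3 encodes LXR alpha, which is prominent in macrophages and in tissues active in lipid metabolism. Nr1h2 (chr7:51804986-51809321, all member coordinates in mm9) was at 58.5, 57.6 and 55.3 CPM in controls and at 53.7, 48.7 and 54.2 CPM in Rnf40 cko nerves. The groups did not overlap, as was the case in the same direction for 21.6% of all genes tested, but the gap was small. Its log2 fold change of -0.12 (SE 0.14, edgeR adjusted p 0.555) has a 95% interval of -0.41 to 0.17, and with scaling by total counts alone the sign turned (0.15). Without Rnf40 cko replicate 2 it was -0.07.

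Nr1h3 (chr2:91024218-91042991) was measured at 9.88, 17.5 and 15.2 CPM in controls and at 23.2, 16.9 and 16.6 CPM in Rnf40 cko nerves. The groups overlapped, since control replicate 2 exceeded Rnf40 cko replicates 2 and 3. The log2 fold change was 0.38 (SE 0.25, edgeR adjusted p 0.265), with a 95% interval of -0.13 to 0.89. Without control replicate 1 it was 0.22, without Rnf40 cko replicate 1 it was 0.20, and over all single omissions it lay between 0.20 and 0.53. These values rest on 12 to 54 reads per library, and the interval is wide enough to hold a change of the size seen for Abca1.

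Abca1 and Abcg1 encode ATP-binding cassette transporters that export cholesterol, Abca1 to lipid-poor apolipoproteins and Abcg1 to lipoprotein particles, and both are textbook targets of the liver X receptors. Abca1 (chr4:53043659-53172767) was at 102.9, 93.8 and 110.7 CPM in controls and at 195.8, 183.7 and 178.8 CPM in Rnf40 cko nerves. Every Rnf40 cko library exceeded every control library by a margin larger than the spread within either group (SD 8.46 and 8.75 CPM, n = 3 each), and 22.0% of all genes tested were likewise higher without overlap. It rose by 0.86 on the log2 scale (SE 0.10, edgeR adjusted p 2.71e-08), which is 1.81-fold with a 95% interval of 1.57 to 2.1.

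Abcg1 (chr17:31194643-31252722) was at 47.8, 54.8 and 51.8 CPM in controls and at 112.5, 86.2 and 86.1 CPM in Rnf40 cko nerves. Again the groups did not overlap, and Rnf40 cko replicate 1 was the highest library. Abcg1 rose 1.84-fold (95% interval 1.52 to 2.23; log2 fold change 0.88, SE 0.14, edgeR adjusted p 2.81e-06). With each library left out in turn, the log2 fold change was between 0.79 and 0.92 for Abca1 and between 0.75 and 0.97 for Abcg1. Whether the 2 genes differed in their response was not tested.

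**Figure D2:**
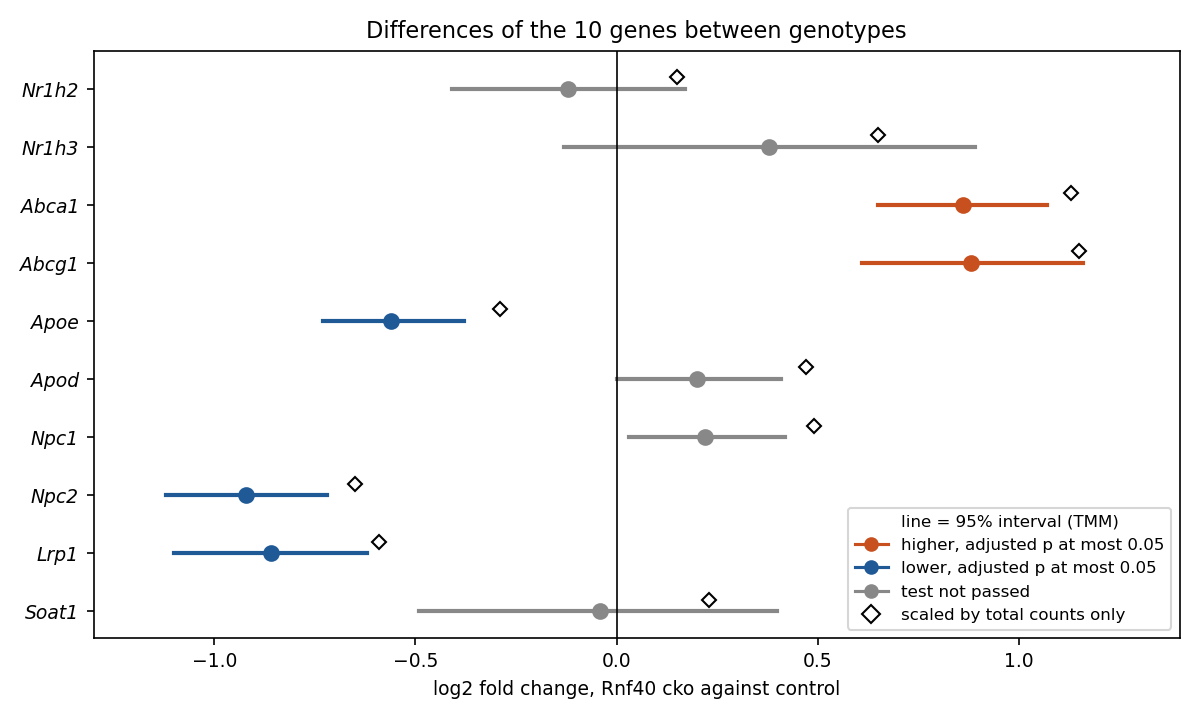
Log2 fold change between Rnf40 cko and control nerves for each of the 10 genes, with its 95% interval (line), under TMM scaling (circles) and with total counts alone (open diamonds). Total-count scaling moves each gene upward, so that Nr1h2 and Soat1 change sign while Abca1 and Abcg1 stay higher and Apoe, Npc2 and Lrp1 stay lower.

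Apolipoproteins take up the exported lipid. Apoe, the main lipid carrier secreted by glia and macrophages and also a liver X receptor target in macrophages, lies at chr7:20281458-20284515. Control libraries held 718.8, 822.7 and 781.6 CPM, and Rnf40 cko libraries 507.9, 544.4 and 529.7 CPM. The groups were well separated, with the highest Rnf40 cko library below the lowest control. Apoe fell by 0.56 on the log2 scale (SE 0.09, edgeR adjusted p 2.88e-06), opposite in sign to Abca1 and Abcg1. With scaling by total counts alone the log2 fold change was -0.29 and still passed (edgeR adjusted p 0.00644, against 7.05e-09 to 0.00644 over all alternatives).

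Apod (chr16:31296278-31314894), which encodes a lipocalin made by Schwann cells and fibroblasts of nerve, was at 1029.2, 740.8 and 754.8 CPM in controls and at 934.2, 1000.6 and 963.7 CPM in Rnf40 cko nerves. Control replicate 1 was the highest of all libraries, and it alone made the groups overlap. The fold change was 1.15 (95% interval 0.998 to 1.33, edgeR adjusted p 0.129). Without control replicate 1 the log2 fold change was 0.37 and passed the test (edgeR adjusted p 0.00236, against 0.00236 to 0.477 over all alternatives), while without control replicate 2 or 3 it was 0.12 or 0.13.

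Lrp1 encodes a large endocytic receptor that binds apolipoprotein E and many other ligands. Lrp1 (chr10:126975217-127058204) was at 624.9, 660.5 and 702.1 CPM in controls and at 355.9, 291.2 and 444.4 CPM in Rnf40 cko nerves. The Rnf40 cko libraries were all below the controls, but they spread more (SD 76.9 against 38.6 CPM), and the highest was replicate 3, the library that stood apart. Lrp1 fell by 0.86 (log2; SE 0.11, edgeR adjusted p 4.71e-06), and without that library by 1.02 (edgeR adjusted p 1.61e-13, against 7.9e-19 to 0.000617 over all alternatives).

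NPC1 and NPC2 work in sequence to release cholesterol from late endosomes and lysosomes, NPC2 as a soluble carrier in the lumen and NPC1 in the membrane. Npc2 (chr12:86095510-86114062) was at 218.2, 241.8 and 236.1 CPM in controls and at 132.2, 121.2 and 115.0 CPM in Rnf40 cko nerves, and the groups were separated by a wide gap. Npc2 fell to 0.529 times the control level (95% interval 0.46 to 0.608; log2 fold change -0.92, SE 0.10, edgeR adjusted p 2.09e-09).

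Npc1, which lies on chromosome 18, had 230.5, 271.8 and 251.3 CPM in controls and 297.5, 266.2 and 315.7 CPM in Rnf40 cko nerves. Control replicate 2 exceeded Rnf40 cko replicate 2, so the groups overlapped. The log2 fold change was 0.22 (SE 0.10, 95% interval 0.03 to 0.42), and the interval for this gene alone excluded 0 while the p adjusted over all genes did not pass (edgeR, 0.0747). Without Rnf40 cko replicate 2 it was 0.29 and passed (edgeR adjusted p 0.03, against 9.74e-05 to 0.273 over all alternatives). In the annotation the end of Npc1 overlaps 3110002H16Rik on the other strand, and the strand setting of the counting is not given in the sources used here, so reads from the overlap are uncertain. The estimates of Npc1 and Npc2 thus had opposite signs, and their difference was not tested.

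Soat1 encodes the enzyme that esterifies cholesterol for storage in droplets. Soat1 (chr1:158358239-158404459) was at 21.4, 25.4 and 18.3 CPM in controls and at 20.6, 16.9 and 24.4 CPM in Rnf40 cko nerves, with full overlap of the groups. The log2 fold change was -0.04 (SE 0.22, edgeR adjusted p 0.905) with a 95% interval of -0.49 to 0.40. Its sign turned under total-count scaling and when control replicate 2 or Rnf40 cko replicate 2 was left out (0.09 and 0.07), it was -0.18 without control replicate 3 and -0.17 without Rnf40 cko replicate 3, and with 26 to 59 reads per library smaller changes were not detectable.

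Levels of different genes were compared per kilobase of exon. In controls Apoe (391 ± 26 CPM per kb, SD, n = 3) and Apod (327 ± 63) ranked highest and overlapped each other. They were followed by Npc2 (71.2 ± 3.8), Lrp1 (37.4 ± 2.2), Npc1 (23.4 ± 1.9) and Nr1h2 (17.0 ± 0.48), then by Abcg1 (12.7 ± 0.87) and Abca1 (9.89 ± 0.82), neighbours that did not overlap. Nr1h3 (5.64 ± 1.6) and Soat1 (4.54 ± 0.75) were lowest and overlapped. Among all tested genes of known length, Apoe and Apod were above 99.6% and 99.4% by their control level per kb, and Soat1 above 30.0%.

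In Rnf40 cko nerves Apod (375 ± 13 CPM per kb) stood above Apoe (266 ± 9.3) without overlap. Abcg1 (23.3 ± 3.7) and Abca1 (18.0 ± 0.84) both moved past Nr1h2 (15.5 ± 0.89), and Abcg1 overlapped Npc1 (27.3 ± 2.3) and Lrp1 (20.5 ± 4.3), which in turn overlapped Abca1. Npc2 (37.7 ± 2.7) again followed the apolipoproteins, and Nr1h3 (7.50 ± 1.5) and Soat1 (4.31 ± 0.79) again came last, here without overlap. Exon lengths came from the annotation, and isoform use was not measured.

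**Figure D3:**
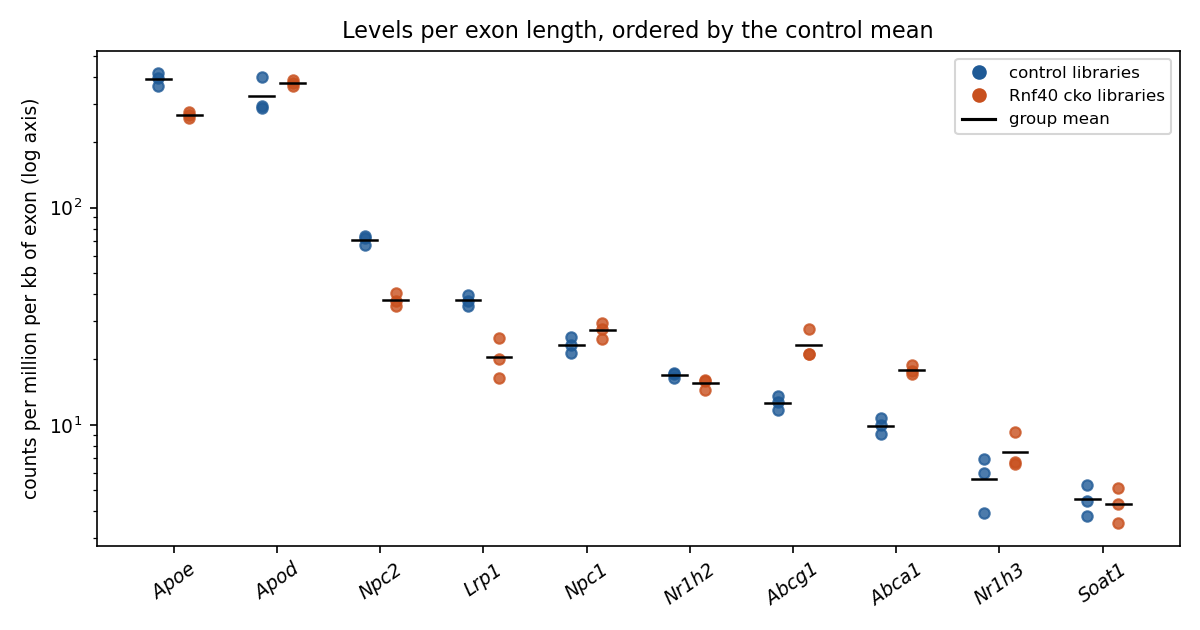
Level per kilobase of exon (CPM per kb, log axis) of the 10 genes in control (blue) and Rnf40 cko libraries (orange), ordered by the control mean (short lines are group means). Apoe and Apod lie far above the others in both groups, and the Abcg1 and Abca1 points of Rnf40 cko libraries rise past those of Nr1h2.

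The promoters of the genes that met the stricter limits were inspected because Abca1 rose while Npc2 and Lrp1 fell. RefSeq promoter windows of GRCm38.p6, from 250 bases before to 50 bases after a start, were matched by symbol for 8 of the 10 genes, with 11 windows in all, and Abcg1 and Npc1 had none. Shown 5′ to 3′ on the minus strand, the strand of each gene, are the windows of Abca1 (chr4:53159846-53160145), Npc2 (chr12:84773063-84773362) and Lrp1 (chr10:127621099-127621398). Capitals mark matches to any of 8 motifs searched on both strands.
Abca1: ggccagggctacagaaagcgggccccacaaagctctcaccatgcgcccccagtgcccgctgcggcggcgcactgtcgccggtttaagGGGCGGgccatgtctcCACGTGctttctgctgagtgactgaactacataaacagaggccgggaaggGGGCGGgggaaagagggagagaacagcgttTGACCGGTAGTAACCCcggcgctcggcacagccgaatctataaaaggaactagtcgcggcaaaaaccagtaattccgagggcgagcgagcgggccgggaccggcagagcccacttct
Npc2: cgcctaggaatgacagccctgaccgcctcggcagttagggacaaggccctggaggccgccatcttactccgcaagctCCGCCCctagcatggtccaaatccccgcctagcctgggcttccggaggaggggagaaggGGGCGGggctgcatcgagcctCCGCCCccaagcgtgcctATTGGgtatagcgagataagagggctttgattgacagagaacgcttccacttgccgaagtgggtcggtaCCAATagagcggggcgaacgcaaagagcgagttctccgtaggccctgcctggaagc
Lrp1: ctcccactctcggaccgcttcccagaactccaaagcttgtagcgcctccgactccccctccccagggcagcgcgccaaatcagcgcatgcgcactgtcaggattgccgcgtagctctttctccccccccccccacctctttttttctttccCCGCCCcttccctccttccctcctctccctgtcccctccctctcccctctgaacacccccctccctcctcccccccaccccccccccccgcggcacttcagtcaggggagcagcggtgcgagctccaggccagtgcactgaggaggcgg

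The 8 motifs were the nuclear receptor half-site AGGTCA, the looser direct repeat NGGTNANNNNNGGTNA with 4 bases between its half-sites, the E-box CACGTG, the SREBP element TCACCCCAC, the Egr motifs GCGTGGGCG and GCGGGGGCG, the GC box GGGCGG and the CCAAT box. The looser repeat was chosen with the known liver X receptor element of the Abca1 promoter in mind, after the levels had been seen. Its match in the Abca1 window was therefore set by that choice and tests nothing, whatever its share among all windows. In the Abca1 window it matched once, on the strand opposite to the gene, from base 184 to base 199 of the window counted from its 5′ end, where the printed strand reads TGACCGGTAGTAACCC. Of all 32851 windows of this length, 0.718% hold such a repeat. The Abca1 window also held 1 E-box (7.15% of all windows) and 2 GC boxes (35.7%). The other 10 windows of the members held neither the repeat nor the E-box. The exact half-site (16.3% of all windows), which is one form of the looser half-site, the SREBP element (0.551%) and the Egr motifs (0.612% and 2.91%) matched in no window of a member. Npc2 had 3 GC boxes and 2 CCAAT boxes (37.4% of all windows), and Lrp1 had 1 GC box. A match describes the letters in a window and does not show binding.

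The other genes of the pathway were taken from 8 lists with 127 genes, of which 95 were tested. Of these, 11 passed upward, 31 passed downward and 53 did not pass, with a median log2 fold change of -0.18, beside 15.4% and 16.2% of all genes and a median of -0.0026. Scaled by total counts alone, 26 passed upward and 20 downward. The upward count was 7 without control replicate 2, 6 without control replicate 3 and 6 with DESeq2. The stricter limits were met by 14 genes, each of them lower, but with total-count scaling by 5 lower and 1 higher, and without control replicate 3 by 13 lower and 1 higher. The most abundant gene of a list is the one with the highest mean CPM over all 6 libraries, without regard to length, and need not lead in each library.

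Partners and co-regulators of the liver X receptors numbered 14 tested genes, of which 2 rose and 1 fell (median log2 fold change 0.14). Rxrg, the gene of retinoid X receptor gamma, was at 14.8, 13.0 and 15.2 CPM in controls and at 1.72, 0.625 and 2.07 CPM in Rnf40 cko nerves. It was thus close to absent from the Rnf40 cko libraries, where as few as 1 read was counted, and fell by 3.14 on the log2 scale (SE 0.42, edgeR adjusted p 2.47e-07). The corepressor gene Ncor1, the most abundant of the list, rose by 0.38 (SE 0.09, edgeR adjusted p 0.00159). The coactivator gene Ncoa3 rose by 0.33 (SE 0.11, edgeR adjusted p 0.0162), but without control replicate 1, control replicate 3 or Rnf40 cko replicate 3 it did not pass (0.0709, 0.0569 and 0.0734), nor did it in DESeq2 (adjusted p 0.0615 without and 0.0612 with its fold-change prior).

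Of the other known target genes of the liver X receptors, 11 were tested, and they moved in both directions: 2 rose and 5 fell (median -0.33). Scd2, the most abundant, was at 5391, 6206 and 5447 CPM in controls and at 1924, 1956 and 1909 CPM in Rnf40 cko nerves. Scd2 and Scd1, which encode stearoyl-CoA desaturases and are also SREBP targets, fell by 1.56 (SE 0.07, edgeR adjusted p 3.08e-19) and 1.61 (SE 0.17, edgeR adjusted p 0.000609). The lipoprotein lipase gene Lpl fell by 0.66 (SE 0.10, edgeR adjusted p 5.97e-06). Apoc1, an apolipoprotein gene, rose by 1.50 (SE 0.51, edgeR adjusted p 0.0216) from 2 to 13 reads per library, and it did not pass without control replicate 2 (0.123), control replicate 3 (0.0653) or Rnf40 cko replicate 2 (0.0654). In DESeq2 Apoc1 did not pass either (adjusted p 0.112, and 0.104 with the prior, which shrank the log2 fold change to 0.92).

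Mylip and Srebf1 are named here after their values had been seen. Mylip, which encodes an E3 ubiquitin ligase that limits lipoprotein uptake, was at 86.5, 79.7 and 97.8 CPM in controls and at 137.0, 112.5 and 125.8 CPM in Rnf40 cko nerves. The groups were separated, and Mylip rose by 0.51 (SE 0.11, edgeR adjusted p 0.00067), in the same direction as Abca1 and Abcg1. Srebf1, the gene of the SREBP1 transcription factors and another target, had overlapping groups and a log2 fold change of 0.09 (95% interval -0.17 to 0.35, edgeR adjusted p 0.623). With scaling by total counts alone it was 0.36 and passed (edgeR adjusted p 0.0245), and over single omissions it lay between 0.03 and 0.20.

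Enzymes that make or break down oxysterols, the ligands of the receptors, included 5 tested genes, of which 3 fell and 2 did not pass (median -0.61). These were Cyp39a1, an oxysterol 7-alpha-hydroxylase and the most abundant of them (log2 fold change -0.92, SE 0.12, edgeR adjusted p 7.61e-08), Hsd3b7 (-0.80, SE 0.23, edgeR adjusted p 0.00664) and Cyp7b1 (-0.61, SE 0.18, edgeR adjusted p 0.00902). All act in the breakdown of oxysterols towards bile acids. The 2 that did not pass, named after their values were seen, were Cyp46a1 and Cyp27a1. Cyp46a1 was higher without overlap, as were 22.0% of all genes tested (0.75, 95% interval 0.07 to 1.44, edgeR adjusted p 0.0859), on 9 to 25 reads per library. Cyp27a1 was at -0.12 (edgeR adjusted p 0.728). Hsd3b7 did not pass without control replicate 3 (-0.63, edgeR adjusted p 0.0892), nor Cyp7b1 without Rnf40 cko replicate 1 (-0.54, edgeR adjusted p 0.0518), and neither passed with scaling by total counts alone. In DESeq2 Cyp7b1 did not pass (adjusted p 0.0519 without and 0.0516 with the prior). Oxysterols themselves were not measured.

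Among 13 other ABC lipid transporter genes tested, 1 rose and 6 fell (median -0.51), in contrast to the rise of Abca1 and Abcg1. The largest falls were those of Abca8b (-1.04, SE 0.18, edgeR adjusted p 0.000181), Abca5 (-1.00, SE 0.22, edgeR adjusted p 0.000385), Abca7 (-0.89, SE 0.21, edgeR adjusted p 0.00098) and Abca8a (-0.85, SE 0.09, edgeR adjusted p 3.62e-09). Abca2, the most abundant, which is known from myelinating cells, did not pass (-0.18, 95% interval -0.35 to 0.00, edgeR adjusted p 0.125), and its sign turned under total-count scaling (0.09). Without control replicate 1 Abca2 was at -0.25 and passed (edgeR adjusted p 0.0464).

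Of 19 other apolipoproteins and lipoprotein factors, 12 were too low to be tested and 7 were tested. Lipc, the gene of hepatic lipase, rose from 0, 1.13 and 1.79 CPM to 8.59, 10.6 and 6.62 CPM (log2 fold change 2.82, SE 0.54, edgeR adjusted p 9.34e-05) on at most 20 reads per library, and DESeq2's fold-change prior shrank the log2 fold change to 1.72. Clu, the gene of apolipoprotein J and the most abundant, had overlapping groups and did not pass (0.25, 95% interval -0.12 to 0.62, edgeR adjusted p 0.316), although with scaling by total counts alone it did (0.52, edgeR adjusted p 0.023). Without control replicate 2 Clu was at 0.13. Apoa4, Apoa5 and Apoc3 had no read in any of the 6 libraries.

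Among other lipoprotein receptors and their partners, 13 genes were tested, 1 rose and 5 fell (median -0.11). Cd36, a fatty acid and lipoprotein receptor gene and the most abundant by that mean, though Lrp6 had more CPM in each Rnf40 cko library, was at 292.3, 224.9 and 324.9 CPM in controls and at 186.3, 193.7 and 180.4 CPM in Rnf40 cko nerves. The groups did not overlap, and Cd36 fell by 0.59 (SE 0.11, edgeR adjusted p 4.43e-05), in the same direction as Lrp1. The HDL receptor gene Scarb1 fell as well (-0.49, SE 0.10, edgeR adjusted p 0.000234), but with scaling by total counts alone it did not pass (-0.22, edgeR adjusted p 0.0843).

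Beside Soat1, 6 genes of esterification and ester hydrolysis were tested, of which 3 fell and 3 did not pass (median -0.70). Lipa, the gene of the lysosomal acid lipase that frees cholesterol from esters upstream of NPC2, was at 210.0, 258.8 and 240.6 CPM in controls and at 85.0, 99.4 and 83.6 CPM in Rnf40 cko nerves. The fall of 1.42 (SE 0.11, edgeR adjusted p 2.1e-13) was in the direction of that of Npc2. The neutral lipase gene Lipe (-0.98, SE 0.17, edgeR adjusted p 2.08e-05) and the droplet protein gene Plin3 (-0.74, SE 0.12, edgeR adjusted p 8.93e-06) fell as well. Pnpla2, the most abundant by the mean of all libraries, did not pass (-0.62, 95% interval -1.47 to 0.23, edgeR adjusted p 0.232). Control replicate 3 was high for Pnpla2 (353.1 CPM, against 191.8 and 194.4 in the other controls, where Lipa had more), and without it the log2 fold change was -0.25.

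Intracellular sterol transport comprised 26 tested genes, of which 4 rose and 8 fell (median 0.03). The largest falls were those of Stard4 (-1.89, SE 0.36, edgeR adjusted p 7.92e-05), a cytosolic sterol carrier, Tmem97 (-1.64, SE 0.33, edgeR adjusted p 0.000188), whose product binds NPC1, and the caveolin genes Cav2 (-1.00, SE 0.12, edgeR adjusted p 3.77e-08) and Cav1 (-0.89, SE 0.09, edgeR adjusted p 1.64e-10). Stard4 and Tmem97 rest on 6 to 36 reads per library. Lamp1, which encodes a major lysosomal membrane protein and was the most abundant, rose by 0.33 (SE 0.08, edgeR adjusted p 0.00136), so that not all lysosomal genes fell with Npc2 and Lipa.

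**Figure D4:**
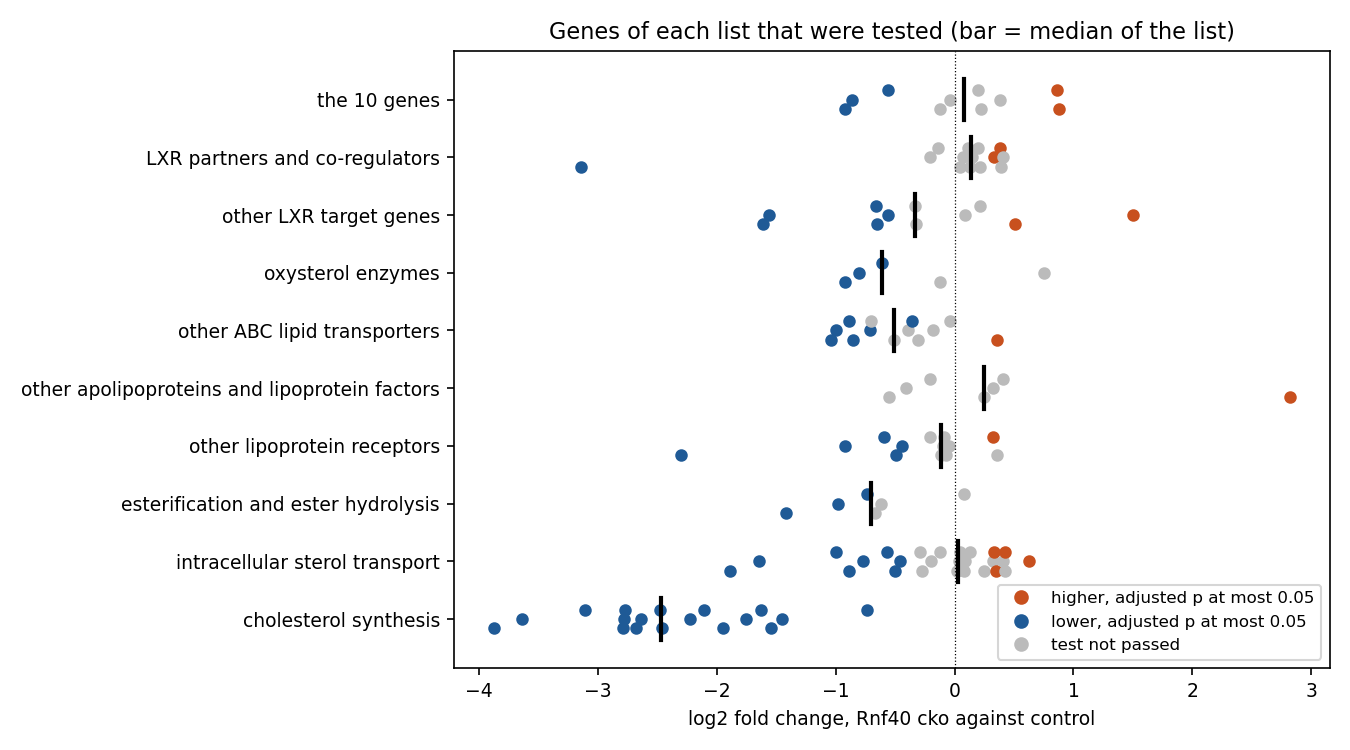
Log2 fold change between Rnf40 cko and control nerves for each tested gene of the 10 genes, of the 8 pathway lists and of cholesterol synthesis. Orange and blue points passed the test upward or downward (edgeR, adjusted p of at most 0.05), grey points did not, and bars are list medians, which run from -2.47 for cholesterol synthesis to 0.25 for other apolipoproteins.

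For comparison, all 18 tested genes of cholesterol synthesis fell, with a median log2 fold change of -2.47, and 17 of them met the stricter limits. Of all genes tested, 16.2% fell and 5.05% met the stricter limits downward. In direction the falls of Stard4 and Tmem97 went with the synthesis genes, whereas Abca1, Abcg1 and Mylip moved the opposite way. These 3 do not stand for the liver X receptor targets as a set. Apoe fell (-0.56), and of the 11 other targets tested 2 rose, Mylip among them, and 5 fell. Hmgcs1 of the cholesterol synthesis list had 0 counts in every library, so a count of 0 need not mean an absent transcript.

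The nerve is a mixture of cell types, and fewer cells of a type and less RNA per cell cannot be told apart in these bulk data. Schwann cell markers were detected in every library (11 of 11), and none of the 9 marker lists had a marker at 0 in all libraries. The summed level of the Schwann cell markers was 114728, 132227 and 124408 CPM in controls and 30933, 29749 and 30096 CPM in Rnf40 cko nerves. Of the 11 markers 10 fell and 1 rose. Beside this and the marker counts below stand 16.2% lower and 15.4% higher among all genes tested. The 7 markers of non-myelinating or immature Schwann cells (6 with a read in every library) summed to 636, 655 and 624 CPM in controls and to 1253, 1588 and 1273 CPM in Rnf40 cko nerves, where 4 rose, 2 fell and Pou3f1, the most abundant, rose by 2.05 (SE 0.12, edgeR adjusted p 9.27e-12). The list was mixed, and most of the rise in its sum came from Pou3f1: without it the log2 ratio of the group means was 0.35 in place of 1.10, an omission chosen after the values were seen. Ngfr and L1cam, also named after their values were seen, fell by 0.90 and 1.87. The part of these markers in the rise of Abca1 and Abcg1 was not tested.

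Macrophages are rich in Apoe, Abca1, Lrp1, Npc2 and Lipa. Of 18 macrophage markers, 16 had a read in every library, 14 were tested, 7 fell and 7 did not pass. They summed to 607, 545 and 587 CPM in controls and to 406, 409 and 416 CPM in Rnf40 cko nerves, and Csf1r, the most abundant, fell by 0.63 (SE 0.13, edgeR adjusted p 0.000294). The median of the tested macrophage markers was -0.45, beside -0.56 for Apoe, -0.92 for Npc2, -0.86 for Lrp1 and -1.42 for Lipa. Medians of other marker lists were negative too: Schwann cell -1.20, skeletal muscle -1.18, perineurial -0.72, adipocyte -0.67, pericyte or smooth muscle -0.55 and endothelial -0.51. The fibroblast median was -0.32, and only that of non-myelinating or immature Schwann cells was positive (1.16). Abca1 and Abcg1 moved against the macrophage markers. The part of any of these lists in the falls of Apoe, Npc2 and Lrp1 was not tested.

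Fibroblasts express Lrp1 and Apod, and 7 of 10 tested fibroblast markers fell and 3 did not pass (10 of 11 with a read in every library). They summed to 54422, 53125 and 57582 CPM in controls and to 40647, 38993 and 38473 CPM in Rnf40 cko nerves, and Col3a1, the most abundant, fell by 0.49 (SE 0.06, edgeR adjusted p 5.3e-08). Lrp1 went down with them and Apod did not. Their part in these differences was not tested.

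Other cell types of the nerve also had lower sums. The 7 perineurial markers, with Itgb4, which Schwann cells also express, the most abundant by the mean of all libraries and Cldn1 above it in each Rnf40 cko library (Itgb4 -1.69, SE 0.10, edgeR adjusted p 4.77e-16), summed to 983, 1120 and 1106 CPM in controls and to 633, 541 and 612 CPM in Rnf40 cko nerves, and 5 of 6 tested fell. The log2 ratio of the group means of this sum was -0.84, and without Itgb4, an omission chosen after the values were seen, it was -0.42. The 11 endothelial markers, with Cdh5 the most abundant (-0.51, SE 0.10, edgeR adjusted p 0.000119), summed to 990, 854 and 960 against 632, 638 and 778 CPM, and 6 of 11 fell. The 9 pericyte or smooth muscle markers, with Pdgfrb the most abundant (-0.65, SE 0.10, edgeR adjusted p 3.39e-06), summed to 1180, 877 and 957 against 607, 591 and 798 CPM, and 5 of 9 fell. In these lists every marker had a read in every library, and the others did not pass. With total-count scaling Cdh5 did not pass (-0.24, edgeR adjusted p 0.0598).

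Adipocytes hold much Lpl, Cd36, Lipe and Pnpla2. Of the 9 adipocyte markers, all with a read in every library, 5 fell and 4 did not pass, and the sums were 1360, 1010 and 1709 CPM in controls and 1029, 953 and 803 CPM in Rnf40 cko nerves. The sums overlapped, and Fabp4, the most abundant, did not pass (-0.43, 95% interval -1.19 to 0.32, edgeR adjusted p 0.33), and was at -0.21 without control replicate 3 and -0.28 without Rnf40 cko replicate 3. The part of these markers in the differences of the lipid genes was not tested. For skeletal muscle, all 15 markers had a read in every library, and the test was passed by 0 of 15 in edgeR (0 also at an unadjusted p under 0.05, and 0 in DESeq2) but by 13 of 15 without Rnf40 cko replicate 3. Myh4, the most abundant, had a log2 fold change of -2.16 (95% interval -5.93 to 1.60, edgeR adjusted p 0.33), or -5.23 without Rnf40 cko replicate 3 (edgeR adjusted p 0.00842). The replicate block gave -3.54 and DESeq2's prior -0.61. Without that library the log2 fold changes of Abca1, Abcg1, Apoe and Npc2 were 0.90, 0.97, -0.55 and -0.86, so their differences did not rest on it. Those of Nr1h2, Nr1h3, Apod, Npc1 and Soat1, which did not pass with or without it, were -0.14, 0.49, 0.22, 0.17 and -0.17.

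**Figure D5:**
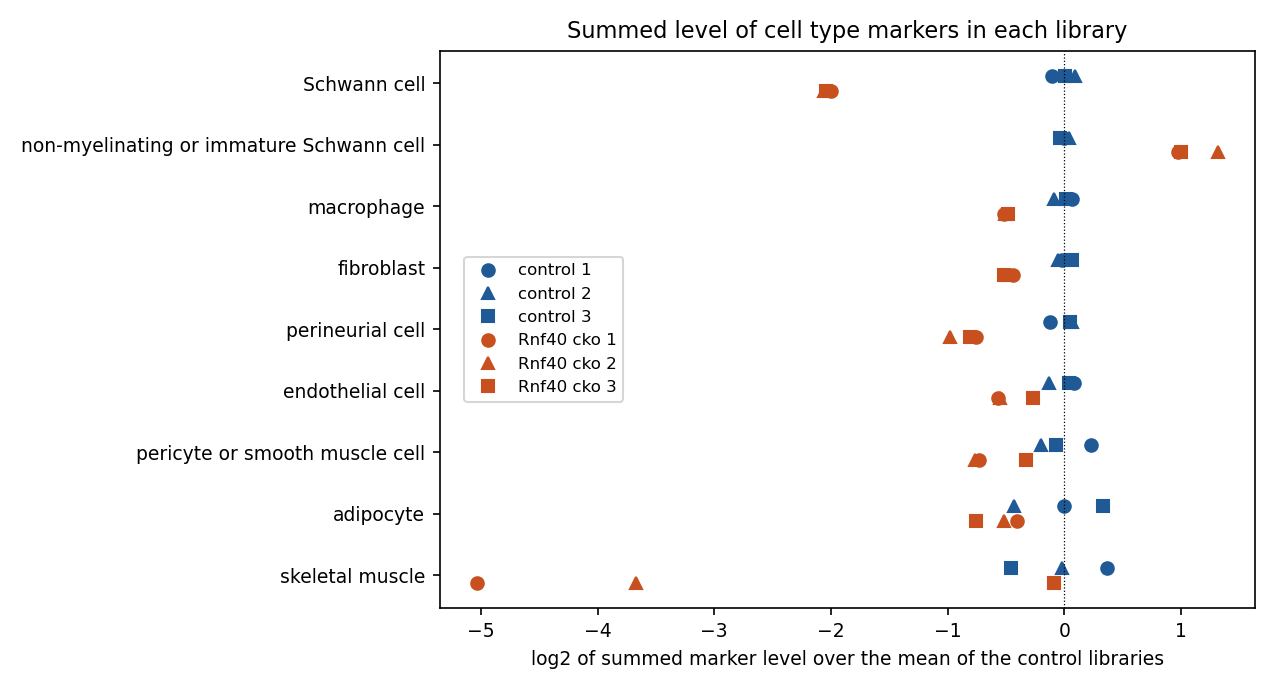
Summed level of the markers of 9 cell types in each library, as log2 of its ratio to the mean of the controls (blue controls, orange Rnf40 cko, one symbol per replicate). Schwann cell sums of all Rnf40 cko libraries are lower and those of non-myelinating or immature Schwann cells higher, and the skeletal muscle sum is low in Rnf40 cko replicates 1 and 2 only.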

How the data were processed

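RNA-Seq libraries of sciatic nerve at postnatal day 14 (3 control, 3 Rnf40 cko) were grouped by the genotype in the sample labels. According to the methods, the authors used TopHat for alignment to mm9 and HTSeq to count the reads with 1 mapping position in each gene. They deposited these raw counts, which had not been normalized, and the submitters' processing notes also name Bowtie2 and the build mm10. Annotation and strand setting of the counting are not given in the sources used here. No symbol was blank. Coordinates and exon lengths are from GENCODE vM1 on mm9 (counted from 1), in which 20763 of 24015 symbols occur once.

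The test was edgeR 4.0.16 in R 4.3.3, with filterByExpr, TMM and a robust quasi-likelihood fit of genotype alone. P-values were adjusted by Benjamini-Hochberg over all genes tested. Standard errors are the absolute log2 fold change divided by the root of F. The filter kept 11371 genes, including all 10 described. Replicates of a group differed by more than sampling noise (chi-square per degree of freedom 1.78 to 5.21). One read equals 0.405 to 0.759 CPM before TMM. The script was tested on simulated counts.

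The genes, the 18 gene lists and the tests were chosen with earlier results of these data known. Besides the 10 genes, Rnf40 and Rnf20, the text names the up to 4 genes of each pathway list with the largest change among those that passed without overlap, and the most abundant gene of each list. Some genes that this rule takes are not reported here. Alternatives were RLE or total-count scaling, DESeq2 1.42.0 with or without a fold-change prior, no filter or at least 10 counts in every library, the replicate block, omission of each library, and the study's limits. The perineurial sum without Itgb4, the sum of immature Schwann cell markers without Pou3f1, and the study's limits under each alternative were added after seeing the data.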

Additional observations from a re-analysis of the deposited data

How the results depend on the processing

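Of the 10 genes, Abca1, Abcg1, Apoe, Npc2 and Lrp1 kept their direction and passed in each of the 13 refits. Abca1, Abcg1, Npc2 and Lrp1 met the study's limits in the fit as reported, but not in each refit: Abca1 missed them without control replicate 2 (0.79), Abcg1 without Rnf40 cko replicate 1 (0.75), Lrp1 without Rnf40 cko replicate 2 (-0.72), and Npc2 and Lrp1 with total-count scaling (-0.65 and -0.59). With total-count scaling, 5 of the 10 genes passed upward instead of 2, 26 pathway genes instead of 11 upward and 20 instead of 31 downward, and 3766 and 880 of all genes instead of 1756 and 1841. The log2 fold change then turned for Nr1h2 (0.15), Soat1 (0.23) and Abca2 (0.09). This scaling moved the median of all genes to 0.27. Soat1 was also positive without control replicate 2 (0.09) or Rnf40 cko replicate 2 (0.07), within -0.18 to 0.09 over the omissions. DESeq2 called 6 pathway genes upward without and 6 with its prior. The study's limits left 0 pathway genes upward and 14 downward (1 and 5 with total-count scaling), and 424 and 574 of all genes. With each library left out, 2 to 3 of the 10 genes passed upward and 3 downward, 6 to 11 pathway genes upward and 27 to 33 downward, and 1293 to 1915 and 1439 to 1992 of all genes. The cause of these shifts was not tested. Same-numbered libraries did not deviate together (correlations -0.09, -0.02 and -0.06), and no library correlated best with its own number. The numbers thus do not pair them. With the replicate block, 2 and 3 of the 10 genes, 11 and 31 pathway genes, and 1727 and 1837 of all genes passed upward and downward. At these depths, low genes such as Nr1h3 and Soat1 have wide intervals.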
